A study of Mus musculus with 24 samples.

Results

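Hippocampal gene expression was compared between a mouse line bred for high freezing and a line bred for low freezing, on 12 of the 24 arrays of the series. The members are all arrays labelled hippocampus: arrays 1 to 6 come from males of the low freezing line, line 24, and arrays 7 to 12 from males of the high freezing line, line 25. The other 12 arrays hold amygdala of the same lines, 6 per line, and serve here only for comparison. The series concerns selection on contextual fear conditioning, in which a mouse learns to freeze in a place where it has been shocked. Age, strain background, any training before dissection and the number of animals behind an array are not given in the labels. The p-values therefore measure the spread between arrays, which may be technical, and with 1 breeding line per phenotype an effect of selection and one of drift cannot be told apart.

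The hippocampus binds the features of a place into a representation that the amygdala links to the shock, and lesions of the dorsal hippocampus impair contextual freezing. Its circuit runs from dentate granule cells through the CA3 pyramidal cells to CA1. Storage of a context depends on glutamate receptors, calcium and cyclic nucleotide signalling, kinases, phosphatases and new protein synthesis in these neurons. Whole tissue was measured, so that fewer cells of a type and less RNA per cell cannot be told apart in any result.

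The tissue label was checked against 57 genes known to mark hippocampal neurons. Of these, 45 had a higher mean in hippocampus than in amygdala, and 30 were higher on every hippocampus array than on any amygdala array. Prox1, a transcription factor of dentate granule cells, read 7.32 to 7.90 in log2(signal + 16) in hippocampus and 5.25 to 6.07 in amygdala. Dsp, the desmosome protein desmoplakin, read 8.15 to 9.01 against 4.35 to 5.18. For 8 markers every amygdala array was higher, among them C1ql3, a synaptic organiser of the C1q family. One technical measure separated the lines: in linear signal, the 5' control for 18S ribosomal RNA lay at 5859 to 7093 in the low line and at 3600 to 5800 in the high line (two-sided exact permutation p = 0.00216, adjusted p = 0.0152 over 7 array measures). The 3' control of the same RNA differed too (exact permutation p = 0.00433, adjusted p = 0.0152), with ranges that overlapped, at 455 to 759 and 351 to 546. For the actin and Gapdh end ratios, the median signal and the scores on the first 2 principal components the lines overlapped too, and no test reached an exact permutation p under 0.05. Array 7, of the high line, stood apart on the first component with a score of 80.7, against -29.3 to 33.0 on the other 11 arrays.

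The first question was which transcripts differ between the lines. Of 45037 probe sets, 10 passed an adjusted p under 0.05 in limma, which is 0.0222% of those tested: 3 rose and 7 fell in the high line relative to the low line. They represent 8 named genes and 1 probe set without a gene name. At an unadjusted p under 0.05 lay 4040 probe sets (8.97%), 2563 higher and 1477 lower, and on 287 (0.637%) no array of one line overlapped with the other. The count of 10 was not stable to the loss of an array. It was 0 when array 1, 2, 3, 4, 6 or 12 was left out. Leaving out array 8 or 11 gave 1, array 5 or 10 gave 4, and array 7 or 9 gave 14. Without array 7, 8 of the 10 were still called. Each array scaled to equal quantiles gave 1 higher and 9 lower, and centring on the median gave 1 higher and 11 lower.

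The largest fall was that of Cd99l2, a membrane protein of the CD99 adhesion family, on the probe set 1456746_a_at. In the low line the 6 arrays read between 8.15 and 8.36 with a median of 8.26. In the high line arrays 7 to 12 read 6.70, 7.51, 5.81, 5.57, 6.39 and 6.09. All high line arrays lay below all low line arrays, and they spread far more widely among themselves: the SD was 0.08 in the low line and 0.70 in the high line (n = 6 each). The difference was -1.92 ± 0.26 (SE, adjusted p = 0.0339 in limma), a 3.79-fold lower value of signal + 16. In linear signal the low line read 269 to 314 and the high line 31.6 to 167.

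Prpf19, the ubiquitin ligase at the core of the PRP19 splicing complex, fell on both of its called probe sets. On 1449635_at the low line ran from 9.52 to 9.78 with a median of 9.72, and the high line from 8.81 to 9.24 with a median of 8.90. The difference was -0.74 ± 0.09 (SE, adjusted p = 0.0264 in limma), and that on 1419839_x_at was -0.74 ± 0.09 (adjusted p = 0.0301). Array 9 was the high line array nearest to the low line on both. Mrps15, a protein of the small subunit of the mitochondrial ribosome, fell by 1.16 on 1430100_at, from a low line median of 6.16 (5.84 to 6.37) to a high line median of 4.93 (4.50 to 5.35), with an adjusted p of 0.0264 in limma. Ppp2r5c, a regulatory subunit that directs protein phosphatase 2A to its targets, fell by 0.97 on 1455520_at, from 5.84 (5.60 to 6.18) to 4.83 (4.60 to 5.22), with an adjusted p of 0.0339. The lines did not overlap on any of these probe sets. In linear signal Mrps15 read 41.1 to 66.8 in the low line and 6.56 to 24.9 in the high line. Ppp2r5c read 32.6 to 56.6 and 8.33 to 21.3, so for both genes the high line was near the lower end of the scale.

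Armh4, a transmembrane protein, fell by 0.71 ± 0.09 (SE, adjusted p = 0.0339 in limma). Its low line arrays read 7.75 to 8.12 (median 7.95) and its high line arrays 7.06 to 7.32 (median 7.24). Gm29514, a predicted gene, fell by 0.98 (adjusted p = 0.0264), from 5.32 to 5.59 in the low line to 4.25 to 4.91 in the high line. In linear signal this is 23.9 to 32.3 against 3.08 to 14.1, so the high line was near the lower end of the scale.

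Among the transcripts that rose was Pde1c, a phosphodiesterase that calcium and calmodulin activate and that breaks down cyclic AMP and cyclic GMP. On 1444067_at the low line read 5.07 to 5.68 with a median of 5.38, and the high line 5.95 to 6.29 with a median of 6.11. The difference was 0.74 ± 0.10 (SE, adjusted p = 0.0339 in limma). This probe set was not called in limma after quantile scaling (adjusted p = 0.0588), on median-centred arrays (0.0666) or without array 7 (0.0643). The clone-named gene 1700029H14Rik rose by 1.25 (SE 0.16, adjusted p = 0.0301), from 4.19 to 4.96 in the low line to 5.56 to 6.01 in the high line. The probe set 1458681_at, which has no gene name here, rose by 1.08 (SE 0.15, adjusted p = 0.0339), from 4.57 to 5.29 to 5.65 to 6.40. All 3 were weakly expressed in the low line, with linear signals no higher than 35.3.

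**Figure D1:**
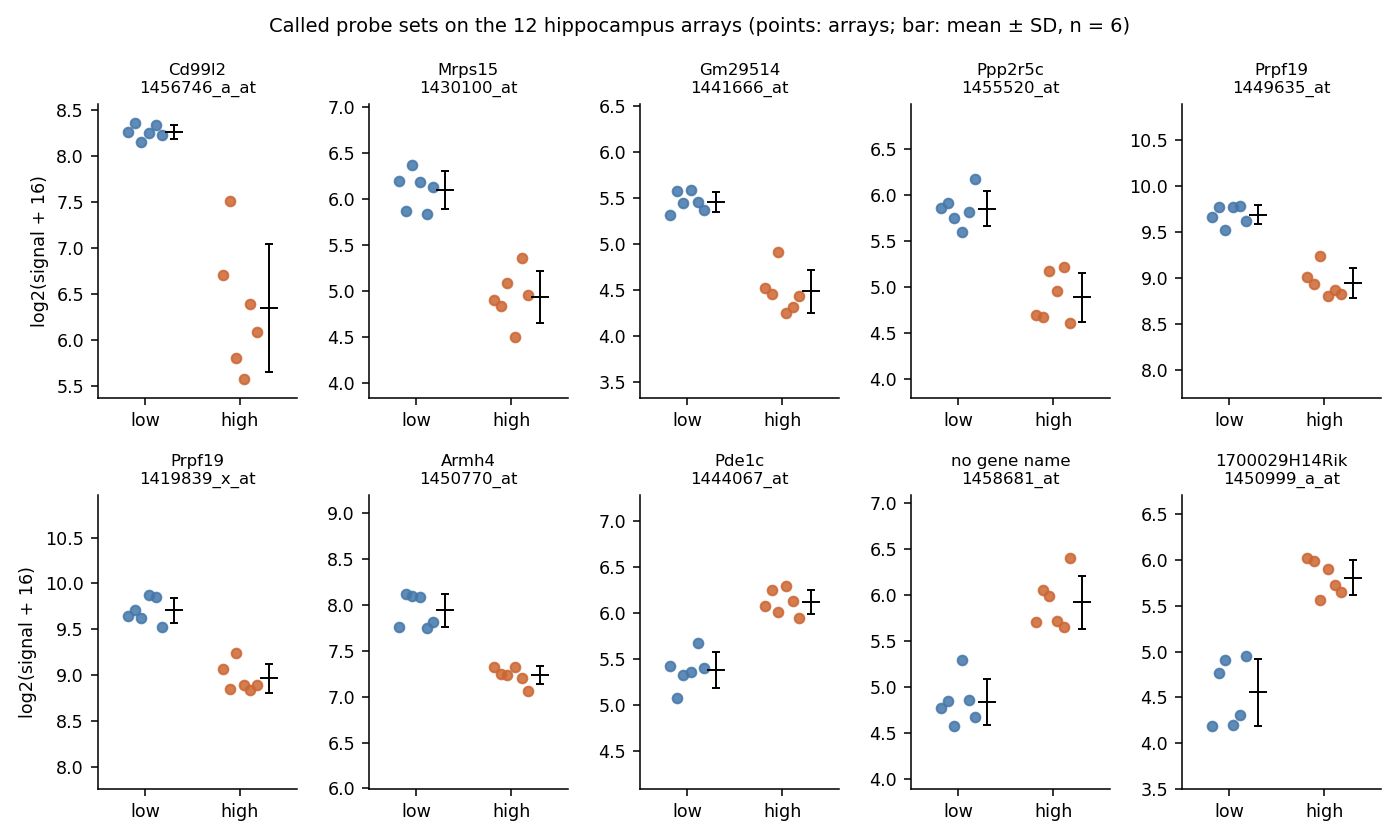
Signals of the 10 called probe sets on the 12 hippocampus arrays, as log2(signal + 16), with points for arrays and a bar for the mean and SD of each line (n = 6). Every axis spans the same range, and no high line array overlaps with a low line array; the high line arrays of Cd99l2 spread from 5.57 to 7.51.

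With the 5' 18S control entered as a covariate, no probe set was called in limma, while 2726 had an unadjusted p under 0.05. All 10 differences kept their sign in that fit: Cd99l2 was at -1.81, Pde1c at 0.85, Mrps15 at -1.24 and the Prpf19 probe sets at -0.65 and -0.70. The control itself separates the lines, so that fit measures the line difference less precisely. The SE rose from 0.09 to 0.13 for Armh4 and from 0.16 to 0.23 for 1700029H14Rik. An effect of the control and one of the line therefore cannot be told apart by it. The part of the 18S control in the calls was not tested beyond that fit.

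A probe set reads only part of a transcript, so the other probe sets of the called genes were examined. They did not all follow the called one. Mrps15 had 2 further probe sets, at -0.06 ± 0.08 and -0.04 ± 0.09 (SE). Ppp2r5c had 6, which ran from -0.12 to 0.13, and none of them reached an unadjusted p under 0.05 in limma. Prpf19 had 3 besides the called pair, at 0.06, 0.01 and 0.00. For these genes the line difference passed the test on 1 or 2 probe sets and on none of the rest. A signal reads how RNA hybridises to the probes of its set. A difference in the level of the RNA and a difference between the lines in the sequence under the probes therefore cannot be told apart here, for these genes, for Cd99l2 and for the other genes below whose probe sets disagree. Probe sequences and sequence variants of the lines were not used here.

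Cd99l2 had 3 further probe sets. The values were -1.30 ± 0.35 on 1456747_x_at and -0.40 ± 0.09 on 1423966_at (unadjusted p = 0.00291 and 0.000792 in limma; adjusted p = 0.343 and 0.236), and 0.18 ± 0.09 on 1423965_at (unadjusted p = 0.053). For Pde1c, 3 of 5 further probe sets had positive differences, of 0.39 to 0.58, and 2 had negative ones, of -0.28 and -0.24. Armh4, Gm29514 and 1700029H14Rik had 1 probe set each.

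**Figure D2:**
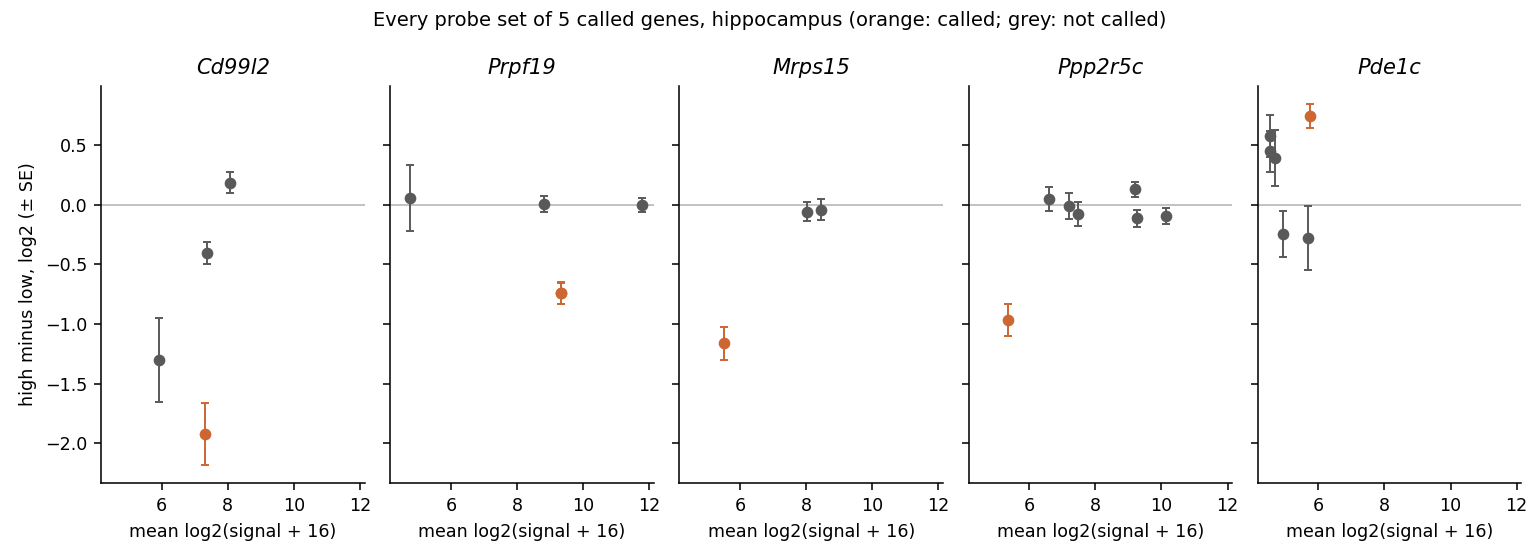
Difference between the lines (high minus low, log2, bars are SE) against the mean hippocampal signal for every probe set of Cd99l2, Prpf19, Mrps15, Ppp2r5c and Pde1c. Orange points are called and grey points are not; the called point of Mrps15 lies at -1.16 while its other points lie near 0, and the 2 called points of Prpf19 coincide.

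Agreement between probe sets was also used to choose genes. Of 8867 genes with at least 2 named probe sets, 27 (0.304%) had 2 or more at an unadjusted p under 0.01, all with 1 sign: 16 higher and 11 lower in the high line. Apart from Prpf19, Cd99l2 and Pde1c, no probe set of these genes passed the adjusted threshold, and their values are given as such. Eef1akmt1, a methyltransferase of the elongation factor eEF1A, was at 0.83, 0.88 and 0.72 on 3 probe sets and at -0.21 on another. Ang, a secreted ribonuclease that promotes vessel growth, was at 1.42 and 0.96, and its first probe set read 4.07 to 5.44 in the low line and 5.93 to 6.32 in the high line. Gmfb, a glial growth and actin-regulating factor, was at 0.48 and 0.42, and C1qb, a chain of complement C1q made by microglia, at 0.53 and 0.33. Aldh2, which detoxifies acetaldehyde in mitochondria, was at 1.13 and 0.98 with high line arrays spread from 6.01 to 7.43 on the first. Its probe set of highest signal, 1448143_at, was at -0.01 (unadjusted p = 0.884 in limma), and the other two were at 0.30 and -0.18.

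On the lower side, Supt16, a subunit of the histone chaperone FACT, was at -0.85 and -0.47. Cap1, an actin-regulating protein, was at -0.92 and -0.89, with low line arrays at 10.02 to 10.36 and high line arrays at 8.75 to 9.72 on the first. Mcm6, a subunit of the replicative helicase, was at -0.77 and -0.81 on these probe sets, while another of its probe sets was at 0.64. Nav1, a neuronal protein of growing microtubules, was at -0.48 and -0.67 on these, and at -0.00 and -0.15 on others. Gas5, a noncoding host of small nucleolar RNAs, had 3 probe sets between -0.61 and -0.39, and another at -0.01. Ptgs2, the prostaglandin synthase COX-2 that neurons induce on activity, was at -0.45 and -0.48. Onecut1, a transcription factor, was at -0.73 and -0.80 with signals close to the lower end of the scale, from 4.23 to 5.76 over both probe sets.

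Genes above the median signal with the lowest p that were not called gave the next values. Sfxn4, a mitochondrial sideroflexin, was closest to the threshold: the low line read 6.68 to 7.06, the high line 7.28 to 7.61, and the difference was 0.59 ± 0.09 (SE, adjusted p = 0.0531 in limma). Ppp1r3e, which targets protein phosphatase 1 to glycogen, was at 0.81, Cdh20, a cadherin, at 0.55, Cast, the calpain inhibitor calpastatin, at 0.55, and Timm9, a chaperone of mitochondrial import, at 0.51. C1ql2, which dentate granule cells secrete at their mossy fibre synapses, was at -0.94 ± 0.15 (adjusted p = 0.0754). Its low line arrays read 8.06 to 8.84 and its high line arrays 7.19 to 7.70. Scn3b, a beta subunit of sodium channels, was at -0.44, and Stk25, a kinase of neuronal polarity, at -0.43. The lines did not overlap on these probe sets of the 8 genes. A further probe set of Scn3b, of higher signal, was at -0.02, one of Timm9 was at -0.25, and those of Cast were at -0.08 and -0.14.

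Some of the largest differences without overlap were in genes that varied strongly within a line. Rpgrip1, a scaffold protein of the photoreceptor cilium, read 6.92 to 8.95 in the low line (median 8.32) and 9.70 to 10.09 in the high line, a difference of 1.88 ± 0.34 (SE, adjusted p = 0.124 in limma). Pnma2, a paraneoplastic antigen of neurons, read 7.63, 7.04, 5.62, 5.53, 7.44 and 7.24 on arrays 1 to 6 and 8.06 to 8.33 on the high line arrays. Arrays 3 and 4 of the low line lay well below the other 4. The same arrays were the lowest of the low line for Rpgrip1, at 6.99 and 6.92, and for Dgkh, at 5.92 and 6.02. These values are of the weaker of its probe sets, 1437018_at (1.44). On the stronger one the difference of Pnma2 was 0.03. Pam, which amidates neuropeptides, read 8.06 to 9.51 in the low line and 9.59 to 9.84 in the high line. In the other direction Vps37c, a subunit of the endosomal ESCRT-I complex, read 7.72 to 8.23 in the low line and 6.03 to 7.44 in the high line, at -0.90, while its other probe set was at -0.12. Over all probe sets the SD was larger in the high line for 56.7%, but for 49.7% without array 7.

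The second question was whether the amygdala of the same lines differed in the same way. Its arrays are not those of the hippocampus, but the labels do not say whether the same animals gave both tissues. The test in amygdala called 1 probe set (0.00222%), with 2945 (6.54%) at an unadjusted p under 0.05. Over all probe sets, 3.77% had an amygdala p under 0.05 with the sign of the hippocampal difference. Of the 10 probe sets called in hippocampus, 4 did: both of Prpf19 (-0.44 and -0.52), that of Mrps15 (-0.57) and that of Cd99l2 (-1.58). In amygdala, Cd99l2 read 8.33 to 8.85 in the low line. In the high line, array 11 read 8.77, array 8 read 7.79, and the other 4 arrays read 6.41 to 6.62, so that 1 high line array lay within the range of the low line.

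The other called probe sets had small or opposite values in amygdala. Armh4 was at 0.04 ± 0.11, Pde1c at -0.18 ± 0.14, Ppp2r5c at 0.14 ± 0.19, Gm29514 at -0.09 ± 0.22 and 1700029H14Rik at -0.04 ± 0.19 (SE). The probe set 1458681_at was at -0.66 ± 0.23 in amygdala, against 1.08 in hippocampus. When the line difference was compared between the tissues in 1 limma fit of all 24 arrays, no probe set was called, and 3189 had an unadjusted p under 0.05. The lowest adjusted p, 0.156, was that of 1458681_at, and Pde1c, Armh4 and 1700029H14Rik had 0.260 each. No called probe set was therefore shown to differ between the tissues.

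Among the probe sets on which the hippocampus arrays did not overlap, 50 of 287 (17.4%) had an amygdala p under 0.05 with the same sign, and 7 had one with the opposite sign. Cap1 was at -1.67 in amygdala, Supt16 at -0.85, Mcm6 at -0.75, Nav1 at -0.49, Stk25 at -0.60, Ildr2 at 0.54 and Il17d, a cytokine of the interleukin-17 family, at 0.51. The probe set of Ildr2 was at 0.63 in hippocampus, where its stronger probe sets were at -0.82 and -0.33. Of the genes of lowest p that were not called, 5 of the 10 higher and 7 of the 10 lower ones had such a p. C1ql2 was at -0.05 in amygdala, where it is weakly expressed, and Cdh20, Cast and Timm9 were at -0.04, -0.14 and -0.16.

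**Figure D3:**
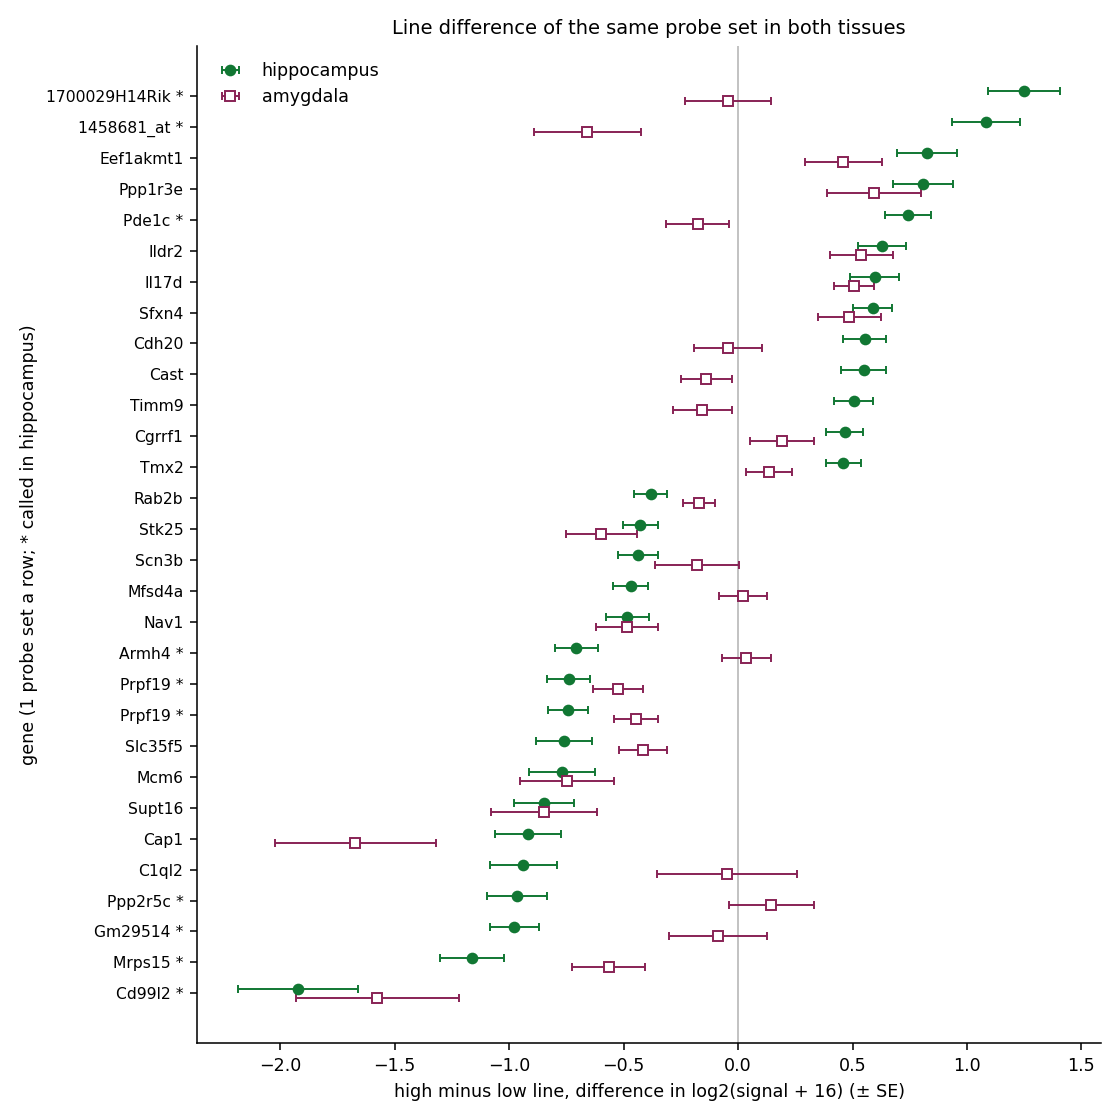
Line difference (high minus low, log2, bars are SE) of the same probe sets in hippocampus (filled circles) and amygdala (open squares), for the 10 called probe sets, marked with an asterisk, and the 20 of lowest p that were not called. Cd99l2, Cap1 and Supt16 lie far below 0 in both tissues, whereas Pde1c, Armh4 and Ppp2r5c lie near 0 in amygdala.

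The places of these genes along the chromosomes were examined next. When 18143 genes were put in their RefSeq order, 234 (1.29%) had a probe set on which the lines did not overlap in hippocampus. Over all chromosomes 61 of the 234 (26.1%) had another such gene within 10 places, close to the 21.6% of all other genes that did. The chromosome that carries Supt16 held 28 of them among 648 measured genes, or 4.32%. On the other 19 chromosomes with over 100 measured genes the share was 0.651% to 1.78%. Without array 7 the count on this chromosome was 33, or 5.09%, against 0.986% to 2.53% on the others. With 1 probe set per gene, that of highest mean, 13.4% of its genes had an unadjusted p under 0.05 in limma, against 6.05% to 11.3% on the others and 8.72% of all genes. The order of the genes was examined after the line differences had been seen, and no test was made of these shares.

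The 28 genes were not spread evenly along it. None lay among the first 221 measured genes, 21 lay in the stretch of 174 genes from Gmfb to Gm5142 (12.1% of the stretch), and 7 among the 253 genes after it. The stretch was drawn from these same genes. It spans the 5 runs of 3 or more of them on this chromosome, each gene within 10 places of the next. Both its ends are therefore such genes, and its share is raised by the way it was drawn. Within the stretch 13 were higher and 8 lower in the high line, and the called gene Armh4 was 1 of the 8. Direct neighbours differed in opposite directions: Slc35f4, a member of a solute carrier family, was at 0.79 next to Armh4 at -0.71, and Rpgrip1 at 1.88 next to Supt16 at -0.85. Gmfb, Cgrrf1, a ring finger protein, and Samd4, a translational repressor, stood side by side at 0.48, 0.47 and 0.51 on the probe sets without overlap, but at 0.25, 0.47 and 0.12 on those of highest mean. Il17d and Eef1akmt1 were adjacent at 0.60 and 0.83, with the palmitoyltransferase gene Zdhhc20 5 places on at 0.51 (0.13 on its probe set of highest mean). By the probe sets of highest mean, the median difference of all 174 genes was 0.05, against 0.02 over all genes. Some of the 28 genes shared a pattern among the low line arrays. On the probe sets without overlap, arrays 3 and 4 were the lowest of that line for Rpgrip1, Eef1akmt1, Il17d, Dgkh and Pnma2. They were not for Cgrrf1 or Samd4. The 28 genes may therefore not vary independently of each other.

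In amygdala 25 of these 28 genes had the same sign on the same probe set, and 11 (39.3%) had an unadjusted p under 0.05 in limma with that sign. For the 206 genes without overlap on other chromosomes the counts were 127 and 28 (13.6%). Armh4, the proteasome subunit gene Psmb5 and Gm5142 were the 3 with the other sign. On the amygdala arrays themselves 140 of 18143 genes (0.772%) had a probe set without overlap between the lines. This chromosome held 11 of them (1.70%), within the range of 0.217% to 1.92% on the others.

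**Figure D4:**
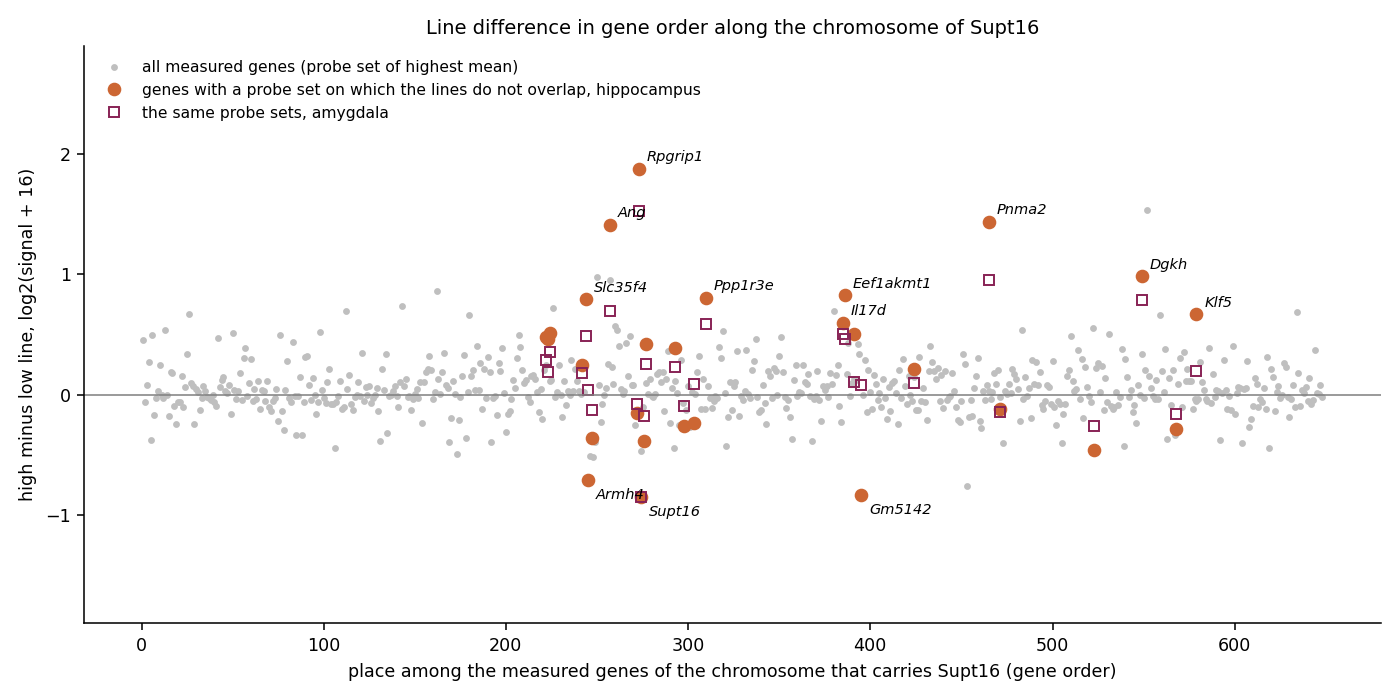
Line difference (high minus low, log2) of the 648 measured genes in their order along the chromosome of Supt16. Orange circles are the 28 genes with a probe set on which the lines do not overlap in hippocampus, open squares are the same probe sets in amygdala, and grey points are all genes by their probe set of highest mean, which for Pnma2 lies at 0.03; the circles begin at Gmfb, the 222nd gene, with none before it.

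The third question was whether gene groups of hippocampal cells and of memory signalling moved between the lines. Each gene was represented by its probe set of highest mean, and for scale, 10043 of all 18193 genes had a positive difference and 8150 a negative one, with a median of 0.02. At an unadjusted p under 0.05 lay 994 higher and 592 lower genes. No gene of the 42 lists was called except Pde1c among the phosphodiesterases, so the lists are described by counts and medians. Centring the arrays on their median moves the median of all genes from 0.02 to -0.05 and turns the sign of lists with small positive medians. Leaving out array 7 turned the median of the thalamus list to -0.01, of the serotonin list to -0.02 and of the dopamine and acetylcholine lists to -0.00. It also turned that of the protein phosphatase 2A list, from -0.02 to 0.00.

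The neuronal markers of the hippocampus lay mostly on the negative side. Of 19 dentate granule cell genes 14 were negative, with a median of -0.12 and 4 at an unadjusted p under 0.05, all lower: C1ql2, Lct (-0.34), Dsp (-0.36) and Pter (-0.26). Pter had a lower median in hippocampus than in amygdala (6.31 against 6.76), whereas C1ql2, Lct and Dsp were higher on every hippocampus array. The dentate median ran from -0.14 to -0.07 when single arrays were left out, and was -0.03 with each gene's probe sets averaged. Without array 7, 11 of the 19 dentate genes were negative and 8 positive (median -0.11), and 4 were lower at an unadjusted p under 0.05. Of 11 CA1 genes 7 were negative (median -0.05), with Spink8 at -0.32 and Mpped1 at 0.18. Of 15 CA2 and CA3 genes 10 were negative (median -0.04), and of 12 genes shared by hippocampal neurons 9 were (median -0.06). Hpca, the calcium sensor hippocalcin, read 12.18 to 12.31 in the low line and 11.91 to 12.08 in the high line, at -0.23 ± 0.06 (SE, adjusted p = 0.345 in limma). In amygdala the dentate list had a median of 0.05. Interneuron genes were positive in 11 of 18 cases (median 0.05), with 1 at an unadjusted p under 0.05.

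Among markers of non-neuronal cells, those of fibroblasts, microglia and oligodendrocyte precursors lay mostly on the positive side, while astrocyte genes were even and myelin genes mostly negative. Of 18 meningeal fibroblast and matrix genes 16 were positive, with a median of 0.22 and 5 higher at an unadjusted p under 0.05 (3 without array 7). Mgp, an inhibitor of calcification in vessel walls, read 7.57 to 8.10 in the low line and 8.07 to 8.48 in the high line (0.42 ± 0.10), and Fmod, the collagen-binding fibromodulin, was at 0.50. Their summed linear signal overlapped, at 6820 to 9750 in the low line and 8209 to 9624 in the high line, and in amygdala the list had a median of -0.18. Of 21 microglia and macrophage genes 16 were positive (median 0.10, 4 higher at an unadjusted p under 0.05, and 2 without array 7). C1qc was at 0.46 and Ctss, a lysosomal protease, at 0.22, and the summed signal was 4962 to 5573 against 5223 to 5901. Of 10 oligodendrocyte precursor genes 8 were positive (median 0.13).

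Endothelial and pericyte genes were positive in 14 of 19 cases (median 0.06), with the smooth muscle actin gene Acta2 at 0.52, the tight junction gene Cldn5 at 0.48 and the VEGF receptor gene Flt1 at -0.30. Their median, and that of 14 choroid plexus and ependyma genes (0.06), turned to -0.00 on median-centred arrays. Without array 7 the endothelial list had 10 positive and 9 negative genes (median 0.03) and the choroid plexus list 7 of each (median 0.02). The summed signal of the choroid plexus list varied widely within both lines, from 1827 to 17150 in the low line and from 2303 to 15722 in the high line. Astrocyte genes were even, 9 of 18 positive with a median of 0.01. Myelin genes were negative in 10 of 14 cases (median -0.03), with Sox10 at 0.42 and Fa2h at -0.27. Whether a different content of these cells contributes to the calls was not tested.

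**Figure D5:**
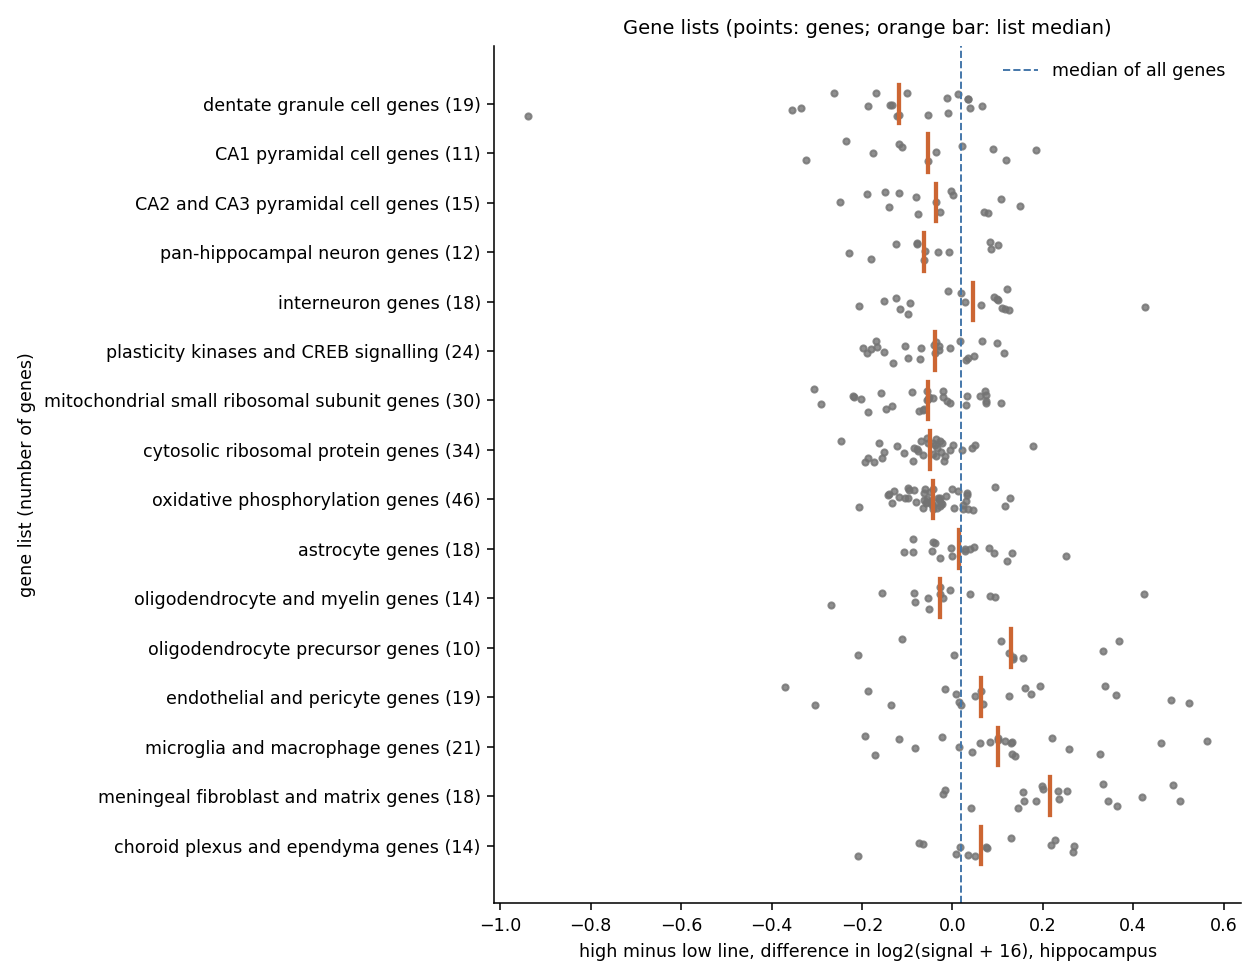
Line difference in hippocampus (high minus low, log2) of the genes of 16 lists, 1 point per gene, with the list median as an orange bar and the median of all genes, 0.02, as a dashed line. The dentate list has its median at -0.12 and the fibroblast list at 0.22, and most members of both lie within 0.5 of 0.

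Lists around the called genes gave small differences. Of 30 proteins of the small mitochondrial ribosomal subunit, Mrps15 included, 22 were negative (median -0.05), with 5 lower (3 without array 7) at an unadjusted p under 0.05: Mrps21, Mrps23, Mrps18a, Mrps28 and Mrps11, at -0.31 to -0.19. Mrps15 itself stands in that list by a probe set that was not called. Of 20 subunits of protein phosphatase 2A and its partners 12 were negative (median -0.02), with Strn4 at -0.20 and the regulatory subunit Ppp2r5b at 0.21. Without array 7, 9 of the 20 were negative and 11 positive. Of 18 genes of the PRP19 complex and associated splicing factors 11 were negative (median -0.01). Among 18 phosphodiesterases Pde1c rose and 12 were negative (median -0.05), and 13 adenylyl and guanylyl cyclases had a median of 0.00, with the guanylyl cyclase subunit Gucy1a1 at 0.35.

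Genes of energy and protein synthesis lay slightly below 0 on the whole. Of 34 cytosolic ribosomal protein genes 29 were negative (median -0.05) and of 46 oxidative phosphorylation genes 34 were (median -0.04), each with 2 lower at an unadjusted p under 0.05. After quantile scaling 22 of the 34 (median -0.03) and 28 of the 46 (median -0.01) were negative. Ndufb8, a subunit of complex I, was at -0.21. In amygdala both medians were positive, at 0.06 and 0.02.

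For memory signalling, 17 of 24 plasticity kinase and CREB pathway genes were negative (median -0.04). Nrgn, the postsynaptic calmodulin-binding protein neurogranin, read 10.71 to 11.01 in the low line and 10.65 to 10.72 in the high line, at -0.20 ± 0.07 (SE, adjusted p = 0.449 in limma), and the calcium/calmodulin kinase kinase gene Camkk2 was at -0.18. Immediate early genes, which neuronal activity induces within minutes, were split, 12 of 22 positive with a median of 0.01; Egr1 read 9.85 to 10.88 in the low line and 10.43 to 10.85 in the high line. Of 20 ionotropic glutamate receptor genes 9 were positive (median -0.02), with the kainate receptor subunit gene Grik1 at 0.26. Of 13 GABA receptor and transporter genes 7 were positive (median 0.01), with the receptor subunit gene Gabra2 at 0.42. Of 10 endocannabinoid genes 6 were negative, and 3 were lower at an unadjusted p under 0.05: Ptgs2, the anandamide hydrolase gene Faah (-0.21) and the cannabinoid receptor partner gene Cnrip1 (-0.17).

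Among 15 serotonin genes 3 were higher (Slc6a4, Maoa and Htr6, at 0.47, 0.22 and 0.41) and 2 lower at an unadjusted p under 0.05. Without array 7 the counts were 0 higher and 1 lower. The lower ones were Tph2, the neuronal enzyme of serotonin synthesis, at -0.47, and the receptor gene Htr5b at -0.41. The signals of Tph2 were low throughout, 4.84 to 5.46 against 4.12 to 4.89. Of 16 corticotropin and glucocorticoid signalling genes 9 were positive (median 0.03), with the glucocorticoid-induced gene Zbtb16 at -0.20. The neurotrophin receptor gene Ntrk2 was at -0.16, with 4 of 7 genes of its list negative. Of 32 neuropeptide and receptor genes 21 were positive (median 0.03), and none had an unadjusted p under 0.05. Synaptic vesicle genes were negative in 14 of 22 cases (median -0.01), with the calcium sensor gene Syt7 at -0.23 and the vesicle protein gene Syp at 0.18. The lists of potassium channels and of calcium, sodium and HCN channels had medians of 0.01 and 0.02, at the level of all genes.

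Genes that mark tissue next to the hippocampus were examined in the same way. Of 15 neocortex and claustrum genes 8 were positive (median 0.06, -0.01 on median-centred arrays), and 4 were higher at an unadjusted p under 0.05. Among them were Lypd1 at 0.61, with low line arrays at 7.71 to 8.44 and high line arrays at 8.43 to 8.98, Ccn2, a matrix protein of deep cortical layers, at 0.45, and the upper layer transcription factor gene Cux1 at 0.41. Their summed linear signal was 4124 to 4646 in the low line and 4426 to 4941 in the high line. Of 14 thalamus and habenula genes 8 were positive (median 0.01) and of 13 striatum genes 8 were (median 0.09), with none at an unadjusted p under 0.05 in limma. Whether these tissues have a part in the calls was not tested. Of 15 genes of immature neurons 10 were positive (median 0.04), with the proliferation gene Top2a at 0.41. Of 6 red blood cell genes 4 were positive (median 0.05), with the carbonic anhydrase gene Car1 at 0.73; without array 7 this median was -0.06.

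The remaining lists had medians between -0.04 and 0.03. Of 12 dopamine and noradrenaline genes 7 were positive, and of 14 acetylcholine genes 7 were. The acetylcholinesterase gene Ache was at -0.61 ± 0.36 (SE), with low line arrays at 6.94 to 7.33 and array 8 of the high line at 4.58. Of 9 metabotropic glutamate receptor genes 6 were positive, of 14 genes of MHC class I and the interferon response 7, and of 17 heat shock and protein folding genes 10. Of 18 glyoxalase and antioxidant enzyme genes 13 were negative (median -0.04). None of the last list had an unadjusted p under 0.05 in limma, and Hagh, a glyoxalase, was at -0.09 ± 0.08 (SE).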

How the data were processed

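The authors deposited 1 linear intensity for each probe set and array. The signal algorithm and genome build were not given in the sources used here. In the deposited values the mean of each array without the highest and lowest 2% of probe sets is 150. Of 45101 probe sets, 64 controls were left out and 45037 tested as log2(signal + 16), a scale that understates changes of weak transcripts. An array gives no molecule count, so precision rests on 6 arrays per line.

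The line difference was fitted on the 12 hippocampus arrays with limma 3.58.1 in R 4.3.3 (lmFit, eBayes), and an adjusted p (Benjamini-Hochberg) under 0.05 made a call. The tissue contrast used all 24 arrays, and array measures an exact permutation test. The code was tested on simulated arrays. The platform annotation gave 34945 probe sets 1 symbol, 932 several and 9160 none; 34741 symbols were updated through the GRCm38.p6 table, which also served for gene order and gave 18193 genes in all. Probe sets whose names end in x_at or s_at can read related transcripts.

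Named genes are all called probe sets, the 10 genes per direction of lowest p not called and above the median signal, up to 12 per direction with several probe sets at p under 0.01, the 5 per direction with the largest difference without overlap, the 5 per line with the most unequal spread, and up to 3 members of lowest p per list. Arrays, lists and rules were chosen with earlier results of these data known. Further list members past an unadjusted p, gene neighbours and the chromosome of Supt16 were chosen after the values were seen. Lists held 796 genes, of which 712 were measured. Array numbers were not used as pairs, because the labels do not say whether they mark the same animal in both tissues. Over all probe sets the deviations of same-numbered hippocampus and amygdala arrays correlated at -0.05 to 0.05, and 2 of 12 matched best with their own number. A correlation over all probe sets can be low also for arrays of the same animal, so it does not settle the question. Alternatives were other offsets, filters, scalings, weights and covariates, and each array left out.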

Additional observations from a re-analysis of the deposited data

Results flagged for a closer look

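Among the values by line of the named probe sets and array measures, 9 of 182 groups of 6 arrays (4.95%) had 1 array far from the other 5. The rule marks about 5% of independent, unselected groups. Most of these groups were chosen by their p or spread, and several share a gene, so the 2 shares cannot be compared. For Mfsd4a, a transporter family member, array 9 of the high line read 6.82, nearer to the low line than the other 5, and for Supt16 on 1419741_at array 7 of the high line read 8.92. Array 10 of the high line was lowest for Ang on 1438936_s_at, at 5.28, and highest for Onecut1 on 1421447_at, at 5.07. Array 4 of the low line was lowest for 2610005L07Rik on 1440387_at, at 4.89, and for Cd99l2 on 1456747_x_at, at 5.92. Array 2 of the low line was highest for Pde1c on 1436251_at, at 4.48. For Mtmr6, a lipid phosphatase gene, array 11 of the high line read 8.74 while the other 5 read 9.32 to 9.42. On the second principal component array 6 of the low line scored 61.5, and the other low line arrays -12.0 to 5.24.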

How the results depend on the processing

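The count of 10 called probe sets became 0 with log2(signal + 1) and 0 with the 18S control as a covariate (3945 and 2726 at an unadjusted p under 0.05 in limma), 26 with log2(signal + 64), 19 without the lowest 40% of probe sets, 57 with an intensity trend in the variance and 51 with the spread of all 24 arrays. Leaving out each array gave 0 to 14. All 10 were among the 26 and among the 51, 9 among the 57 and 6 among the 19. The probe sets of Gm29514, 1700029H14Rik and Ppp2r5c and the unnamed 1458681_at were removed by the last of these filters, so they were not tested there. Over 206 combinations of a called probe set and an alternative, 82 were still called and 124 were not, with 0 reversed; the cause was not tested. The tissue contrast called 0 throughout, also with the array number as a replicate block (0 called, 3101 at an unadjusted p under 0.05 in limma), without array 7 (2834), with log2(signal + 64) (3292) and without the lowest 40% (2003). The lines share no array number, so no block could be fitted between them. The 18S difference of -1507 in linear signal ran from -1676 to -1188 when each array was left out. Of 672 list medians under alternatives, 637 moved by less than the spread between arrays and 35 by more. A small median can change sign within that spread. The sign changed in 10 of 16 alternatives for the cyclases, 8 for MHC class I and the interferon response and 7 for potassium channels. It changed in 0 of 16 for the dentate and the fibroblast lists. Weak probe sets near the offset limit the folds.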
